A study of Mus musculus with 21 samples.

Results

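The genes described here were 9 that encode proteins of the myelin membrane: Mbp, Mobp, Mog, Mag, Cnp, Opalin, Pllp, Mal and Cldn11. They were found by symbol among the 16318 genes with deposited counts, and each passed the low-count filter that left 16303 genes for testing. The set was chosen on the basis of annotation as well as on measured values, the treatment differences of these same mice, in which Opalin, Pllp and Mobp were among the clearest decreases. The treatment differences of the members are therefore given as a description, without a test, and a direction shared by the members is not independent evidence.

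Myelin is the membrane sheath that oligodendrocytes wrap around axons in the brain and spinal cord, where it insulates the axon and speeds conduction. Its compact layers are pressed together on the cytoplasmic side by basic proteins and held by tetraspan membrane proteins, while other proteins sit in the innermost, outermost and paranodal membranes that stay less compact. Mag, Mog, Cnp and Opalin are usually placed in those less compact membranes, so the 9 genes cover the sheath as a whole rather than compact myelin alone.

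RNA from whole brains of 21 SAMP8 mice, a senescence-accelerated strain used as a model of sporadic Alzheimer's disease, was sequenced with 1 library per mouse. Of these mice, 9 (3 female, 6 male) had received the peptide HsTX1[R14A], which blocks the voltage-gated potassium channel Kv1.3, subcutaneously at 1 mg/kg every other day, and 12 (6 female, 6 male) had received phosphate-buffered saline (PBS). Dosing lasted 8 weeks in both groups, from 4 to 6 months of age, and no other strain was analysed here. Each mouse is named by its number in the labels.

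Library totals ran from 14917174 to 36207554 counts in PBS mice and from 17552413 to 47613792 in HsTX1[R14A] mice. Levels are given as CPM (counts scaled to a common library size) after TMM scaling, which adjusts for library composition, and differences as the log2 fold change between treatments (HsTX1[R14A] over PBS) with their standard errors (SE) from edgeR's quasi-likelihood fit with sex in the model. The libraries also differed in their length slope, the change in log2 CPM of the genes of a library, relative to their means over all mice, for each doubling of transcript length. The slope ran from -0.38 to 0.15 in PBS mice (median -0.02) and from -0.14 to 0.23 in HsTX1[R14A] mice (median 0.15). It was thus higher in most HsTX1[R14A] libraries, and slope and treatment are partly confounded in these data. The deposited table names the libraries in 2 forms, one starting with SAMP8 (10 PBS and 5 HsTX1[R14A] mice) and one with SAMP (2 PBS and 4 HsTX1[R14A] mice), and what the forms stand for is not given in the sources used here.

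The upstream sequences of 4 members are shown because they lie at the ends of the treatment differences: Opalin, Pllp and Mobp at the low end and Mag at the high end. They come from the RefSeq promoter windows of GRCm38.p6, which reach from 250 bases before to 50 bases after a transcription start. Of the 9 members, 8 had a window, and Mbp had none. Mag had 3, of which the first is shown. Bases inside the gene's own GENCODE model were left off, and no other annotated gene overlaps the 4 windows. Each sequence is written 5′ to 3′ on the strand of the gene, and capitals mark a match in either orientation to ACAAAG, the core of sites bound by SOX factors, to CTGGCAC, a site type bound by the oligodendrocyte factor MYRF, to CAGCTG, an E-box, or to TATAAA, the TATA box. The 4 stretches are chr19:41077114-41077363 (minus strand) for Opalin, chr8:94696279-94696492 (minus strand) for Pllp, chr9:120149492-120149706 (plus strand) for Mobp and chr7:30914874-30915113 (minus strand) for Mag.
Opalin: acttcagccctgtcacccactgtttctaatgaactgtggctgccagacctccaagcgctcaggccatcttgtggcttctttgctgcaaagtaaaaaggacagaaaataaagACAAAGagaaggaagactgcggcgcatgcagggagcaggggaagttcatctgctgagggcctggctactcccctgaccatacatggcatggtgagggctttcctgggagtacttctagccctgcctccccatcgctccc
Pllp: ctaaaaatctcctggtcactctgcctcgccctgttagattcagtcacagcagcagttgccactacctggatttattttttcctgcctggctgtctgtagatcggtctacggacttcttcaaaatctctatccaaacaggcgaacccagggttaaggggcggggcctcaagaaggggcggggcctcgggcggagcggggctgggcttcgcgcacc
Mobp: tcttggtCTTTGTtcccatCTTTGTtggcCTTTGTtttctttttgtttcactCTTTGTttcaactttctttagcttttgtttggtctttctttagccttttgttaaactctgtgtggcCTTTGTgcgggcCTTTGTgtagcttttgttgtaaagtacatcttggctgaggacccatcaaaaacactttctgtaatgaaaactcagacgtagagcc
Mag: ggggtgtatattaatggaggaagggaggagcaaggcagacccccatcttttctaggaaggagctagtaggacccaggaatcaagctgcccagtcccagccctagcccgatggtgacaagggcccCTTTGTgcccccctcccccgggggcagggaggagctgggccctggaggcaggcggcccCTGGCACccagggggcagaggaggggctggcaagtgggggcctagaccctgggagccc

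Over the whole windows, the SOX-type letters were found in 4 of the 8 members (Mag, Mobp, Cnp and Opalin) and in 18.7% of all 32851 windows. Mobp held 6 matches, all before the start and all in the reverse orientation (CTTTGT in the sequence shown), and it was the only window of the 32851 with 6 or more. The MYRF-type letters were found in 3 members (Mag, Cnp and Opalin) against 5.01% of all windows, and the Opalin match lay 37 bases after the start, outside the stretch shown. The E-box letters were found in Opalin alone, across its start, against 16.3% of all windows, and the TATA box letters in 0 of the 8 members against 13.6%. Pllp, Mal, Mog and Cldn11 held none of the 4 motifs in these windows. A match describes the letters and is not a measured binding site.

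Opalin, Pllp and Mobp had the lowest levels in HsTX1[R14A] mice relative to PBS. Opalin (ENSMUSG00000050121, chromosome 19, 41061710 to 41077113, minus strand, GRCm38) encodes a glycoprotein of oligodendrocyte membranes that appears late in their maturation. Its level ran from 11.2 to 37.4 CPM with a median of 18.97 in the 12 PBS mice, and from 6.89 to 14.97 CPM with a median of 10.8 in the 9 HsTX1[R14A] mice. All 9 HsTX1[R14A] mice lay below the PBS median and 5 lay below the lowest PBS mouse, so the groups overlapped. The log2 fold change was -0.99 (SE 0.15), a level 49.5% lower.

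Pllp encodes plasmolipin, a tetraspan protein of lipid-rich myelin membrane, and lies on chromosome 8 (ENSMUSG00000031775, 94674894 to 94696278, minus strand). Its level ran from 44.2 to 94.0 CPM with a median of 54.3 in PBS mice, and from 27.4 to 43.5 CPM with a median of 37.8 in HsTX1[R14A] mice. It was the only member whose groups did not overlap, a separation found in 0.0184% of all genes tested (3 genes), and since the rule drew on the same contrast nothing is read from it. The log2 fold change was -0.69 (SE 0.11). The antisense gene Gm45767 overlaps Pllp.

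Mobp, a small basic protein on the cytoplasmic face of compact myelin, lies on chromosome 9 (ENSMUSG00000032517, 120149707 to 120181484, plus strand) and overlaps Gm38642 on the same strand. PBS mice ran from 816 to 1689 CPM with a median of 1266, and HsTX1[R14A] mice from 618 to 923 CPM with a median of 811. All 9 HsTX1[R14A] mice lay below the PBS median and 5 below the lowest PBS mouse. The log2 fold change was -0.67 (SE 0.12), a level 37.2% lower.

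Mog, Mal and Mbp were lower by smaller amounts. Mog, an immunoglobulin-like protein of the outermost myelin surface, ran from 39.9 to 84.8 CPM (median 49.6) in PBS mice and from 28.6 to 50.2 CPM (median 37.9) in HsTX1[R14A] mice, with a log2 fold change of -0.57 (SE 0.12). Mal, a raft protein involved in sorting membrane cargo, ran from 146 to 227 CPM (median 169) in PBS mice and from 108 to 155 CPM (median 134) in HsTX1[R14A] mice, with a log2 fold change of -0.44 (SE 0.09). Mbp, which binds the cytoplasmic membrane faces together and is required for compaction, ran from 1913 to 3222 CPM (median 2469) in PBS mice and from 1486 to 2168 CPM (median 2018) in HsTX1[R14A] mice, with a log2 fold change of -0.40 (SE 0.10). The groups overlapped in all 3 genes, with 7 of 9 HsTX1[R14A] mice below the lowest PBS mouse for Mal, 5 for Mog and 4 for Mbp. Every HsTX1[R14A] mouse lay below the PBS median for Mal and Mbp, and 8 of 9 did so for Mog.

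Cnp, Cldn11 and Mag had the smallest treatment differences of the members. Cnp, the cyclic nucleotide phosphodiesterase of the cytoplasmic channels in myelin, ran from 196 to 242 CPM (median 210) in PBS mice and from 142 to 239 CPM (median 207) in HsTX1[R14A] mice, with a log2 fold change of -0.17 (SE 0.08). It overlaps Dnajc7 on the opposite strand. Cldn11, the claudin that forms tight junctions within the sheath, had nearly equal medians of 98.5 CPM in PBS and 98.9 CPM in HsTX1[R14A] mice, with a log2 fold change of -0.06 (SE 0.09). Mag, an adhesion molecule of the innermost membrane that faces the axon, had medians of 103 and 112 CPM and a log2 fold change of 0.08 (SE 0.15). For Cnp, 4 of 9 HsTX1[R14A] mice lay below the lowest PBS mouse and 7 below the PBS median. These counts were 1 and 3 for Cldn11, and 1 and 2 for Mag.

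HsTX1[R14A] mouse 93, a male, was the lowest of all 21 mice for these 3 genes. It had 142 CPM of Cnp, 59.4 CPM of Cldn11 and 45.7 CPM of Mag. The other HsTX1[R14A] mice began at 159 CPM for Cnp, 89.1 CPM for Cldn11 and 102 CPM for Mag. Without this mouse the log2 fold changes were -0.13 for Cnp, -0.0021 for Cldn11 and 0.17 for Mag.

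**Figure D1:**
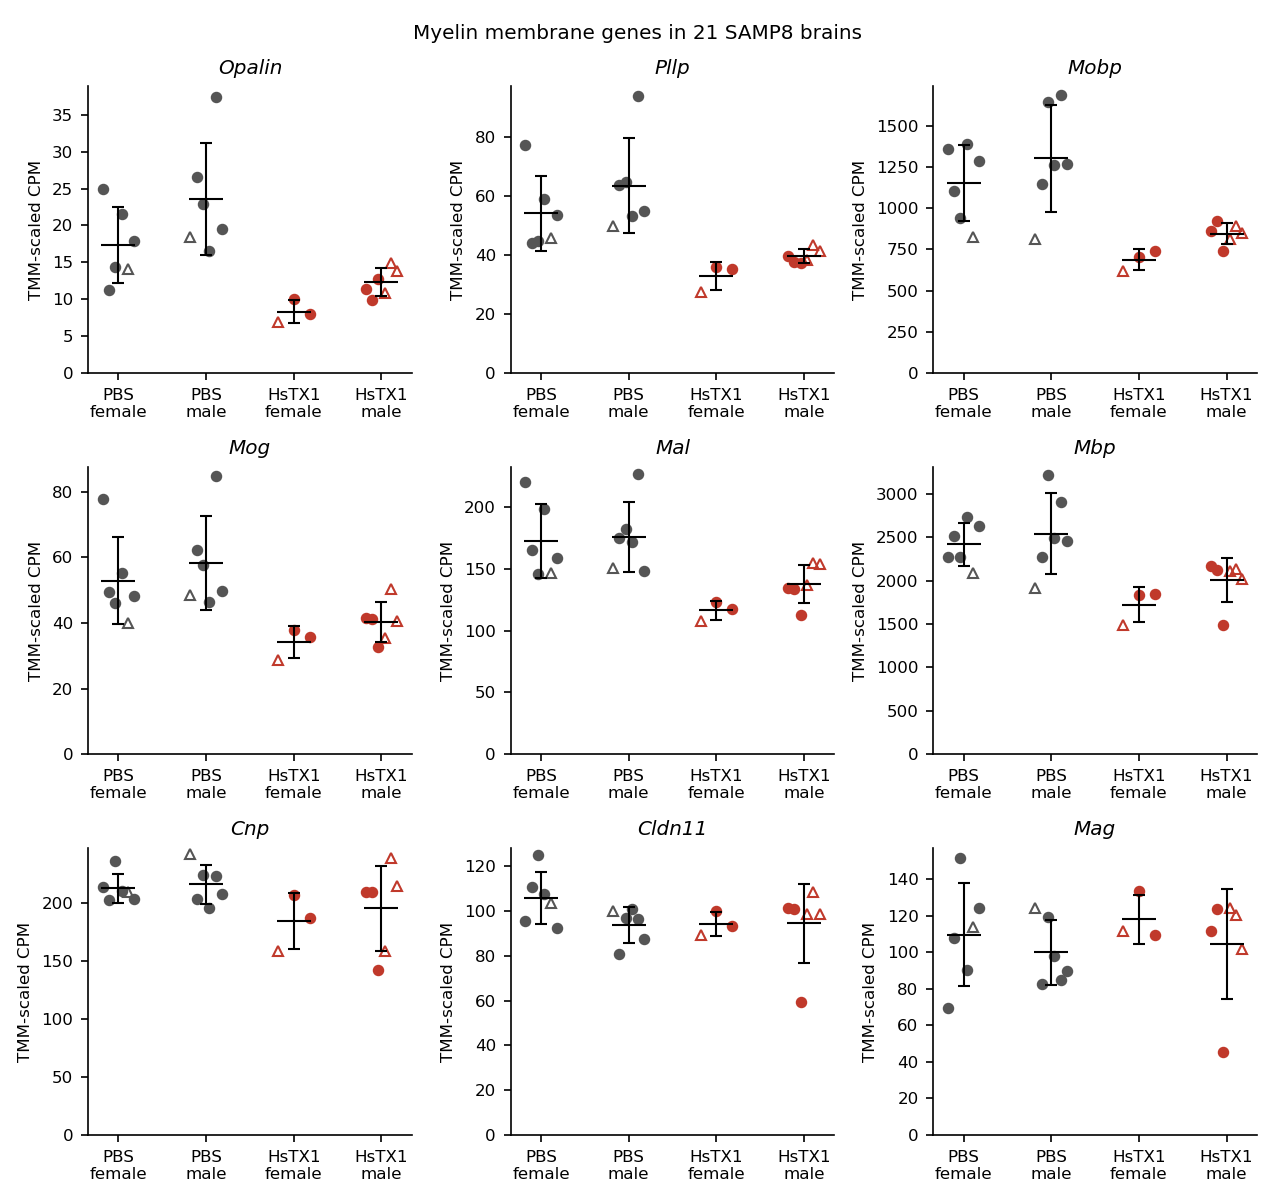
Level of each of the 9 members in every mouse, as TMM-scaled CPM on an axis that starts at 0, by treatment and sex. Points are mice (filled circles, library names starting with SAMP8; open triangles, SAMP), and the bars are the mean and SD of each group of 3 or 6 mice. The Pllp values of the 9 HsTX1[R14A] mice, at most 43.5 CPM, lie below those of all 12 PBS mice, and the lowest point for Cnp, Cldn11 and Mag is the same HsTX1[R14A] male.

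Across the whole table, 31.6% of the 16303 genes had an FDR of at most 0.05 for treatment, 16.1% lower and 15.5% higher in HsTX1[R14A] mice. Among the members, 6 of 9 (Opalin, Pllp, Mobp, Mog, Mal and Mbp) passed the same threshold on the lower side and 0 on the higher side (edgeR). The median log2 fold change was -0.44 over the members and -0.01 over all genes tested. The rule that chose the set used this contrast, so the count is not set against the background.

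The count of 6, on which the choice of members bears, was also 6 under limma/voom, DESeq2, another scaling, other filters, no sex term and the name form as a covariate, and with any 1 mouse left out. It was 0 in 3 other analyses (edgeR), with the length slope as a covariate and within the mice of each name form. In each of those 3 analyses, 0 genes of the whole table were called. These counts describe the calls and support nothing about the members, which were chosen on the same contrast. With the length slope as a covariate, the log2 fold changes of Opalin, Pllp and Mobp were -0.58, -0.39 and -0.50, and that of Mag turned from 0.08 to -0.33. With mouse 93 also left out, a step added after the data were seen, they were -0.50, -0.30 and -0.41, with -0.17 for Mag. Within the 15 mice with SAMP8 names the median over the members was -0.53, against -0.44 in all mice. Within the 6 mice with SAMP names, 2 of them PBS, the median was -0.19, with -0.69 for Opalin and -0.46 for Pllp but only -0.13 for Mobp and -0.12 for Mbp. In another fit the dependence of each library on transcript length and GC content was removed instead. There 7 members had an FDR of at most 0.05 on the lower side, with Cnp added at -0.27 (SE 0.08). Of all 16303 genes, 1040 were called lower in that fit, and the count of 7 is likewise a description. That correction made Mbp (-0.64) and Mobp (-0.80) lower and Mog (-0.36) less so. The part of the length slope in these differences was not tested beyond these fits.

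**Figure D2:**
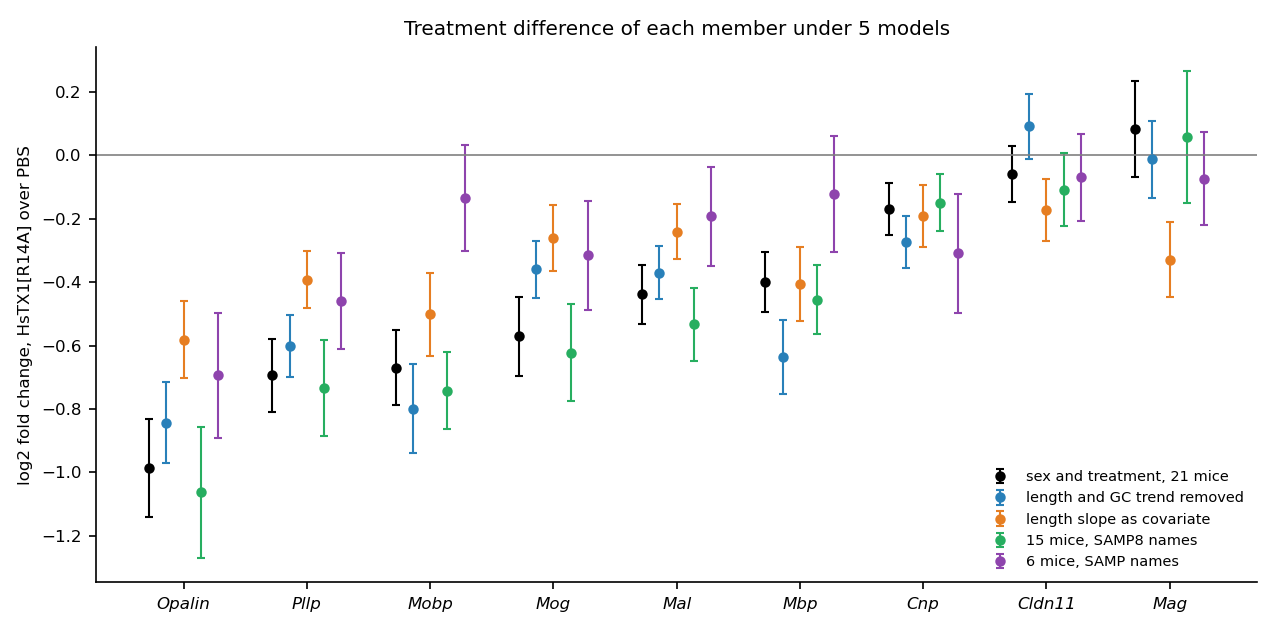
Log2 fold change (HsTX1[R14A] over PBS) for each member under 5 analyses, with bars of 1 SE. Opalin, Pllp, Mobp, Mog, Mal, Mbp and Cnp are below 0 in every analysis shown, while Cldn11 and Mag lie on both sides of 0. Among the 6 mice with SAMP names, Mobp (-0.13) and Mbp (-0.12) are closest to 0 of those 7 genes.

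Levels of the members were compared with each other only per length, as counts divided by the length of the gene's longest transcript and scaled to a common total in each library (TPM, the length-scaled counterpart of CPM). Mbp was highest with a median of 985 TPM over the 21 mice, followed by Mobp (662), Cnp (151), Mal (122), Cldn11 (119), Mag (103), Mog (60.8), Pllp (52.3) and Opalin (12.2). Mal was above Cldn11 in only 12 of 21 mice, and their order differed by treatment: the PBS medians were 122 for Mal and 101 for Cldn11, and the HsTX1[R14A] medians 121 and 132. Each of the other neighbors kept its order in at least 17 of 21 mice. Mbp exceeded Mobp in all 21. The order rests on the longest transcript, and for genes with many shorter isoforms such as Mbp the level per length is then understated.

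On this per-length scale the median gene was itself 0.32 higher (log2) in HsTX1[R14A] than in PBS mice, over 16024 genes. Without allowance for that shift, the log2 difference was 0.37 for Mag, 0.24 for Cldn11 and 0.15 for Cnp, which were higher in HsTX1[R14A] mice, and -0.05 for Mbp, -0.08 for Mal, -0.19 for Mog, -0.27 for Mobp, -0.30 for Pllp and -0.54 for Opalin. Relative to the median gene, the log2 differences were -0.86 for Opalin, -0.62 for Pllp, -0.59 for Mobp, -0.51 for Mog, -0.40 for Mal, -0.36 for Mbp, -0.16 for Cnp, -0.08 for Cldn11 and 0.05 for Mag. Together the 9 genes made up 0.353 to 0.533% of a library's counts in PBS mice and 0.270 to 0.400% in HsTX1[R14A] mice.

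Sex and its interaction with treatment were not used to choose the members. Opalin was higher in males (mean 17.9 CPM) than in females (14.3 CPM), with a log2 difference of 0.49 (SE 0.15), an unadjusted p of 0.0042 and an adjusted p of 0.446 over all genes (edgeR). Pllp was 0.25 higher in males (SE 0.11, adjusted p = 0.446, edgeR). After adjustment over all genes, 0 of the 9 members differed by sex with edgeR, limma/voom or DESeq2, and 2 had an unadjusted p under 0.05 with edgeR. Over all genes tested, 9 (0.0552%) differed by sex. The male minus female differences ran from -0.15 (Mag) to 0.49 (Opalin).

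The treatment difference was of the same sign in females and males for every member except Cldn11. For Opalin it was -1.06 (SE 0.26) in females and -0.94 (SE 0.20) in males, and for Pllp -0.72 (SE 0.19) and -0.68 (SE 0.15). For Cldn11 it was -0.17 (SE 0.14) in females and 0.01 (SE 0.11) in males. The interaction was called in 0 of the 9 members (adjusted p = 1.00 in each, edgeR), none had an unadjusted p under 0.05, and limma/voom and DESeq2 also called 0. It was called in 0% of all genes. With 3 HsTX1[R14A] females the 95% interval of the interaction ran from -0.55 to 0.78 for Opalin and from -0.18 to 0.61 for Mal. In counts simulated for this comparison over 16297 genes, the test recovered 96 of 200 genes given a 2-fold interaction. Each gene was simulated on its own, without variation shared across a library such as the length slope. The share recovered may therefore differ in these libraries.

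The mean of the members in each mouse, as log2 CPM centered on the mean over all mice, was 0.173 ± 0.161 (SD, n = 12) in PBS and -0.230 ± 0.200 (SD, n = 9) in HsTX1[R14A] mice. It is given without a test. The lowest values were those of HsTX1[R14A] mice 93 (-0.547) and 98 (-0.526), and the highest was that of PBS mouse 90 (0.526). HsTX1[R14A] mouse 89 (0.0447) lay above PBS mice 104 (-0.0555) and 105 (0.0295).

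Mice that were high for one member within their treatment and sex were mostly high for others. The log2 CPM of each member, after sex and treatment had been fitted, was correlated over the 21 mice for the 36 pairs of members. The p are from 100000 permutations (two-sided), with adjustment over the pairs. The correlations were planned as a description without p. The permutations treat the mice as exchangeable, which was not tested, and genes of a library share its depth and RNA quality. A small p here, or for the length slope below, is therefore not evidence of shared regulation. Pearson's r had a median of 0.46 and ran from -0.38 (Mag and Opalin) to 0.92 (Mog and Pllp), and 29 of the pairs were positive. After adjustment 16 pairs passed 0.05 by r, and 18 by Spearman's rho. For Mog and Pllp rho was 0.85, p was 1e-05 for r, the smallest that the permutations can give, the adjusted p was 7.2e-05 for r and 0.00024 for rho, and r was 0.81 without the 2 mice farthest from the median of Mog. For Mbp and Mobp, both basic proteins of the cytoplasmic face, r was 0.83, rho 0.86 and the adjusted permutation p 7.2e-05 and 0.00018. Without the 2 mice farthest from the median of Mbp, r was 0.79. Within the 15 mice with SAMP8 names the median r was 0.41, and these pairs gave 0.92 and 0.74.

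The pairs fell into blocks, described here after their values were seen. Among Opalin, Pllp, Mobp, Mog, Mal and Mbp, the 15 pairs had a median r of 0.74, from 0.28 to 0.92. Cldn11 went with Mag (r = 0.79, rho = 0.63, adjusted permutation p = 0.000792 and 0.00861). It also went with Cnp (r = 0.73, rho = 0.62, adjusted permutation p = 0.00124 and 0.00861). Without the 2 mice farthest from the median of Mag, r of Cldn11 with Mag was 0.56. Without the 2 mice farthest from the median of Cnp, r of Cldn11 with Cnp was 0.45. The 21 pairs with Mag, Cnp or Cldn11 had a median of 0.21. Mouse 93 was low for Mag, Cnp and Cldn11 alike, and without it, in a calculation added after the data were seen, the median over the 36 pairs was 0.34. The pairs of Cldn11 with Mag and with Cnp then had r of 0.53 and 0.52, that of Mag with Cnp moved from 0.58 to 0.25, and Mag with Pllp from -0.33 to -0.59. In the 12 PBS mice alone the median was 0.23.

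The length slope of the library was related to 5 of the 9 members by r after adjustment, Mag in one direction and Opalin, Pllp, Mog and Mal in the other. Mag was higher in libraries with a higher slope (r = 0.81, rho = 0.80, adjusted permutation p = 0.0003 and 0.0001, 21 mice, after sex and treatment) and kept r = 0.82 without the 2 mice farthest in slope, PBS mice 90 and 103. Opalin and Pllp were lower in such libraries (r = -0.76 each, rho = -0.67 and -0.65, adjusted p = 0.0003 and 0.000367 for r and 0.00622 for both rho), with r of -0.60 and -0.49 without those mice. Mog (r = -0.69, rho = -0.64, adjusted p = 0.0023 and 0.00622) and Mal (r = -0.63, rho = -0.46, adjusted p = 0.00504 and 0.0713) came to -0.36 and -0.31 without them, so the size of r in these genes depended on those mice. Mobp (-0.44), Cldn11 (0.43), Cnp (0.10) and Mbp (0.02) did not pass 0.05 after adjustment over the 10 relations computed, the last of which was the mean of the members (-0.31, adjusted p = 0.211). Within the 15 mice with SAMP8 names r was 0.84 for Mag, -0.74 for Opalin and -0.75 for Pllp. Without mouse 93 it was 0.85 for Mag, -0.80 for Opalin, -0.86 for Pllp, -0.88 for Mog and -0.84 for Mal, and that of the mean of the members was -0.66.

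When the slope was fitted along with sex and treatment, all 36 pairs were positive, from 0.17 (Mobp and Cnp) to 0.93 (Mbp and Mobp), with a median of 0.67. The pair of Mog and Mag moved from -0.16 to 0.92, and that of Pllp and Mag from -0.33 to 0.74. Without mouse 93 the median was 0.50 and 35 of the pairs were positive, with 0.81 for Mog and Mag and 0.52 for Pllp and Mag. These values are a description, since the slope was computed from the same libraries.

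**Figure D3:**
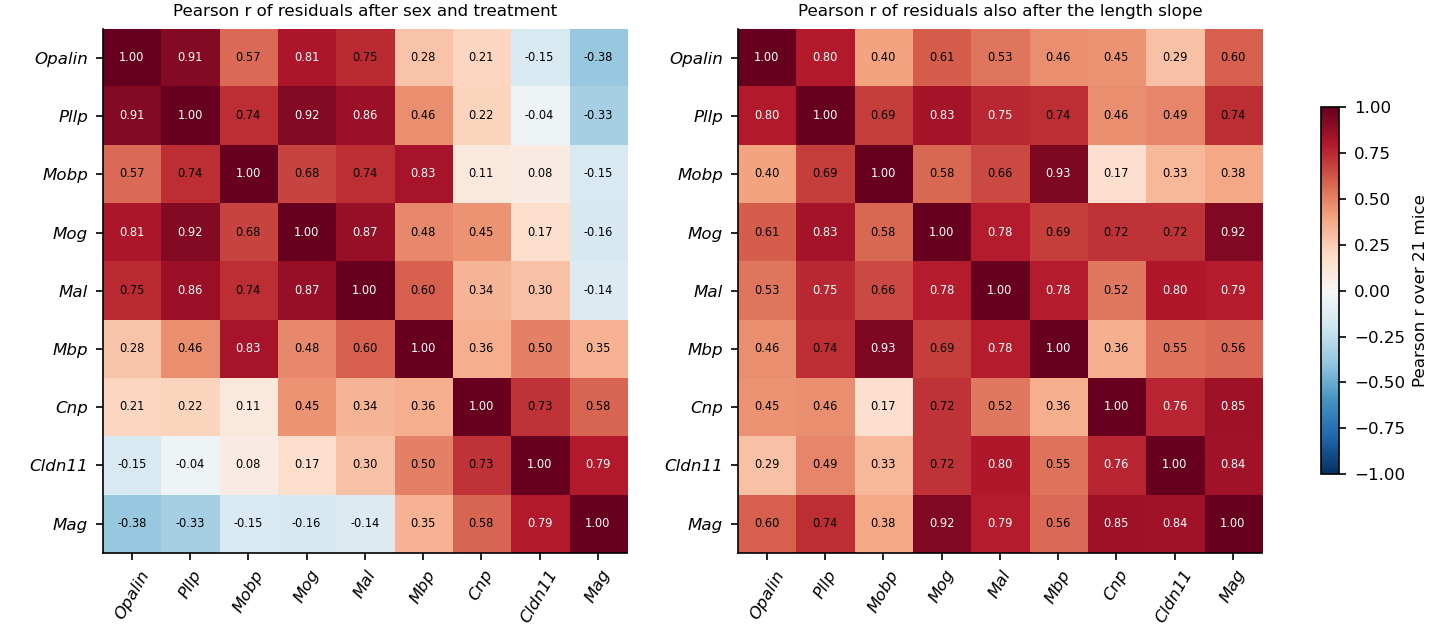
Pearson's r between members over 21 mice, from the log2 CPM left after sex and treatment were fitted (left) and after the length slope was fitted too (right). The color runs from -1 (blue) to 1 (red). On the left Mag is below 0 with Opalin, Pllp, Mobp, Mog and Mal, and on the right every pair is above 0.

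**Figure D4:**
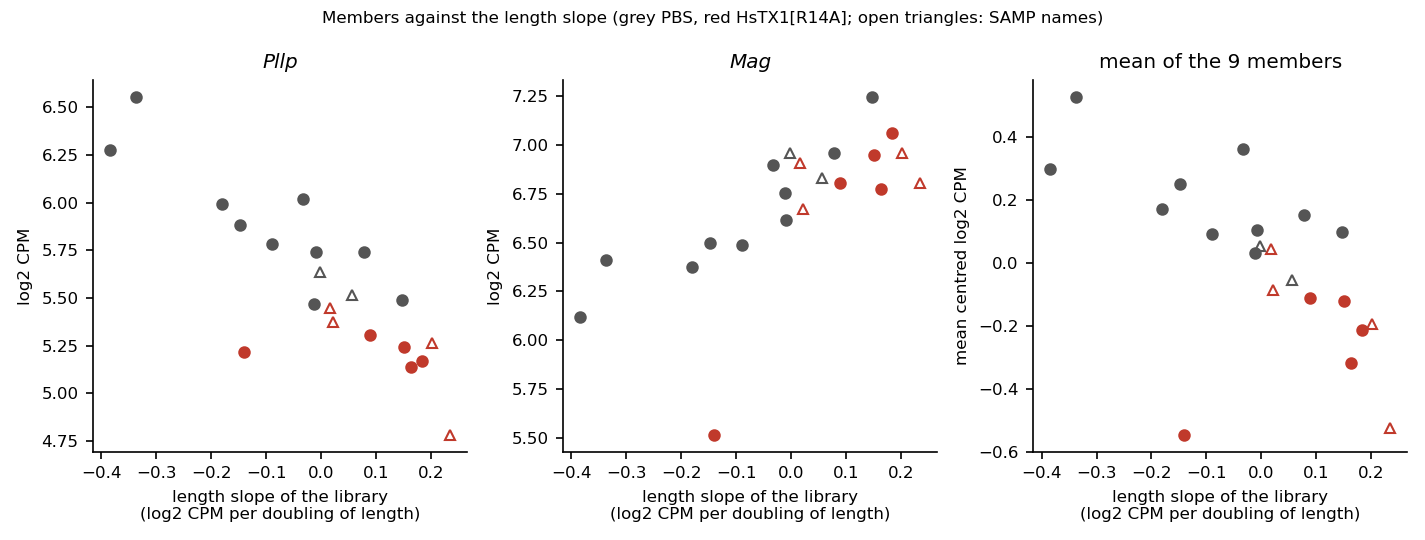
Log2 CPM of Pllp and Mag and the mean centered log2 CPM of the 9 members (vertical axes) against the length slope of each library (horizontal axis), for 12 PBS mice (grey) and 9 HsTX1[R14A] mice (red). Filled circles are libraries named SAMP8 and open triangles SAMP. Pllp decreases and Mag increases from left to right, and HsTX1[R14A] mouse 93, at a slope of -0.14, lies below the other points in the Mag panel.

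The genes whose levels most resembled the mean of the members, after sex and treatment, were sought among 13293 genes outside the set. They were Tspan2 (r = 0.92), Ugt8a (0.87), Bcas1 (0.84), Anln (0.84), Gatm (0.82), Cd9 (0.80), Calml4 (0.80), Il33 (0.79), Lpar1 (0.78) and Sept4 (0.76), over 21 mice. These r values rank genes and carry no p, and mice share a library's depth and composition across genes. Of the 10 genes, 7 were on one of the lists of myelin or mature oligodendrocyte genes used below, and Gatm, Calml4 and Lpar1 were not.

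Genes of other lists of the oligodendrocyte lineage were counted in the same fit, with 16.1% of all genes called lower and 15.5% called higher as background (edgeR, FDR of at most 0.05). The lists were chosen with earlier results of these data known, so their counts are a description. An adjusted p of a gene named for its place in a list, or picked after its value was seen, is not an independent test. Of the genes on the 11 lists, 44 were called in the fit of sex and treatment. With each library's length and GC trend removed 26 were called, and 0 with the length slope as a covariate. Over all 16303 genes the counts in these 3 fits were 5144, 2501 and 0. With the trend removed, 1040 of all genes were called lower and 1461 higher, the background for counts given below in that setting. Of 17 further myelin genes 8 fell and 1 rose, with a median log2 fold change of -0.25. Bcas1, an early myelin-associated gene, fell from 272 ± 62.3 to 176 ± 23.2 CPM (mean ± SD, log2 fold change -0.66, SE 0.12, adjusted p = 0.0145, edgeR), while Nfasc, whose glial and neuronal isoforms anchor the paranode and node, rose from 96.7 ± 46.5 to 167 ± 59.3 CPM (0.87, SE 0.27, adjusted p = 0.0255, edgeR). Of 13 genes of myelin lipid synthesis 3 fell and 2 rose, with Aspa, the acetylaspartate-cleaving enzyme, lowest at -0.56 (SE 0.10). With the length and GC trend removed, the calls were 6 lower and 3 higher for the further myelin genes, and 1 lower and 3 higher for lipid synthesis, where Aspa was at -0.36 and the median turned from -0.05 to 0.0057.

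Markers of mature oligodendrocytes outside the myelin membrane fell in 6 of 15 and rose in 0, with Ptgds, a prostaglandin synthase also made in the meninges and choroid plexus, lowest at -0.76 (SE 0.28). With the length and GC trend removed 2 of the 15 were called lower, and Ptgds (-0.61) was not among them. Their summed level was 1714 to 2885 CPM in PBS and 1540 to 2021 CPM in HsTX1[R14A] mice. Of 12 precursor markers 0 fell and 3 rose (Tnr, Gpr17 and Cspg4, with Tnr highest at 0.96, SE 0.25), and their summed level was 368 to 679 and 438 to 781 CPM. Of 10 lineage transcription factors 0 fell and 2 rose, Myrf by 0.75 (SE 0.27) and Zfp536 by 0.61 (SE 0.17). With the length and GC trend removed, Zfp536 was still called, at 0.26 (SE 0.07), and Myrf was not, at 0.28 (SE 0.14). Of the precursor markers Tnr (0.60) and Gpr17 (0.44) were still called and Cspg4 (0.04) was not. The median of the lineage factors turned from 0.21 to -0.13, and that of the precursor markers from 0.19 to -0.01, with the length slope as a covariate. In whole-brain RNA, fewer oligodendrocytes and less myelin RNA in each of them cannot be told apart.

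Of 11 axonal partners of myelin, which include the contactin and Caspr genes of the paranode and the Nogo receptors that bind Mag, 6 rose and 0 fell, with a median of 0.41. Rtn4rl2 was highest at 0.68 (SE 0.28) but was not called, and Cntnap1, the Caspr gene, rose by 0.67 (SE 0.25, adjusted p = 0.0461, edgeR). This list had long transcripts, with a median of 5415 bases against 2778 for the members. With each library's length and GC trend removed, 1 of the 11 was called, Nrg1 at 0.51, while Cntnap1 was not, at 0.29 (SE 0.13, adjusted p = 0.109, edgeR). The median was then 0.14, and with the length slope as a covariate the median was -0.08.

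Markers of other cells of the brain were called in both directions, against 15.5% of all genes called higher and 16.1% called lower. In lists of 8 or 10 genes a count of 2 is near those shares, and nothing is read from it. The part of these cells in the differences of the members was not tested. Neuronal markers rose in 2 of 10 (summed level 6240 to 9272 CPM in PBS, 7531 to 10721 in HsTX1[R14A] mice) and endothelial markers in 2 of 8 (43.9 to 100.03 and 55.7 to 112 CPM). Astrocyte markers fell in 4 of 8 (3331 to 4986 and 3339 to 5038 CPM), with S100b, which oligodendrocytes also express, lowest at -0.72 (SE 0.17). The others that fell were Gfap (-0.59), Aqp4 (-0.30) and Aldoc (-0.20). Microglial markers fell in 2 of 8, P2ry12 by 0.65 and Aif1 by 0.55 on the log2 scale (385 to 557 and 329 to 487 CPM in sum). Of the Schwann cell and peripheral myelin markers, 6 of 10 were in the table, and of these Pmp22 and Cdh19 fell and Egr2 rose. With the length and GC trend removed, Egr2, P2ry12 (-0.33) and S100b (-0.44) were still called, and Aif1 (-0.18), Pmp22 (-0.11) and Cdh19 (-0.08) were not. In that setting 2 of 8 microglial and 2 of 8 astrocyte markers were called lower, the latter being Gfap (-0.67) and S100b. Of the neuronal and of the endothelial markers, 1 each was called higher. The summed level of the 6 Schwann cell markers was 38.9 to 52.0 CPM in PBS and 34.6 to 46.3 CPM in HsTX1[R14A] mice. None of these lists had a gene at 0 in any mouse, and none had a gene that differed by sex (edgeR).

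**Figure D5:**
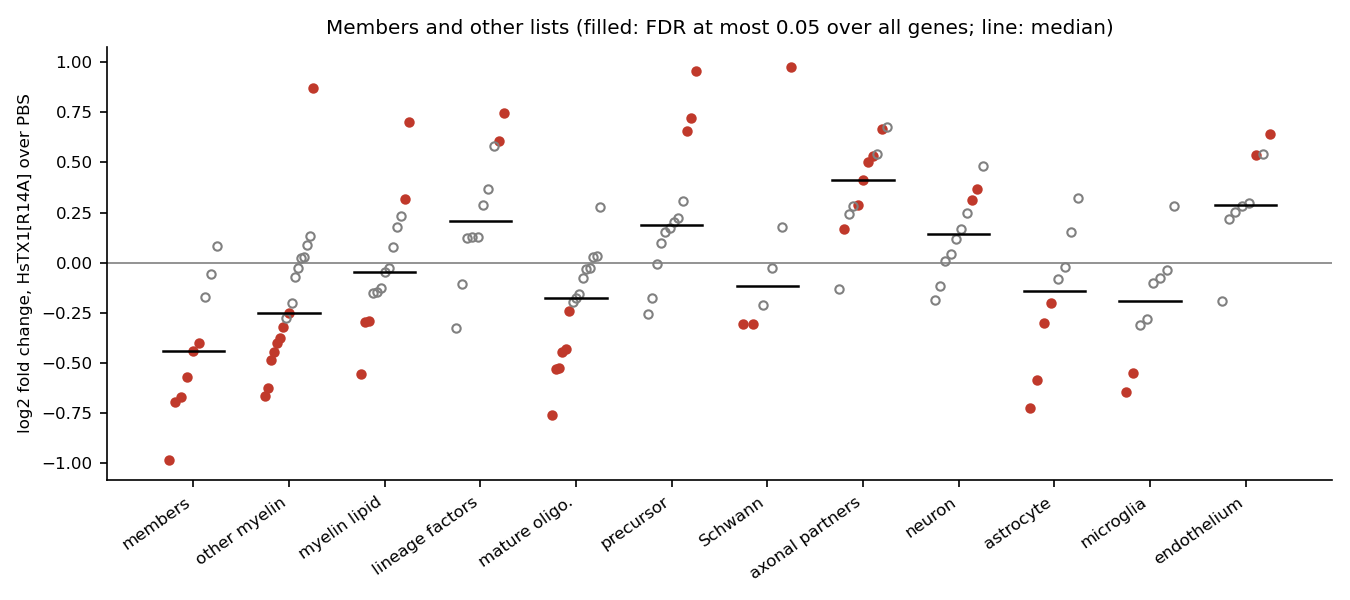
Log2 fold change (HsTX1[R14A] over PBS) for each gene of the members and of 11 other lists, sorted within a list. Filled points had an edgeR FDR of at most 0.05 over all genes, open points did not, and a line marks the median of the list. The median is lowest for the members (-0.44) and highest for the axonal partners of myelin (0.41). The members were chosen on this same contrast, so their place among the lists is not evidence.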

How the data were processed

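Whole-brain RNA of 21 mice was sequenced, and the authors deposited estimated counts per gene, without normalization, from STAR alignment to GRCm38 and Salmon quantification. Values were rounded for testing (90.5% were already within 0.01 of whole). The table's columns of the authors' own comparison (fold change, p-value and FDR) and 53 other per-sample columns (CPM in 37, counts in 16) were left out. For 24 genes the symbol, among them Sept4, had been stored as a date and was restored from the gene ID. The labels and the study's methods name different library kits.

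Genes passing filterByExpr by treatment and sex (16303) were tested after TMM scaling by the quasi-likelihood method of edgeR 4.0.16 (R 4.3.3), in an additive model of treatment and sex, with Benjamini-Hochberg adjustment over all genes at an FDR of 0.05. The interaction was fitted in a model of its own. Alternatives were DESeq2 1.42.0, limma 3.58.1 with voom, RLE scaling, a filter of 1 count in total or of 10 in each mouse, dropping sex, name form, each form alone, loess trends (span 0.5) on transcript length and GC content, the length slope, and each mouse left out. Log2 CPM carry a prior count of 2. Mouse numbers are unique, so none is shared between groups.

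The procedure was tested on simulated data. The members and lists were chosen with earlier results of these data known. Cntnap1, Nrg1, Gpr17, Cspg4, Zfp536, Aif1, Pmp22, Cdh19, Egr2, Gfap, Aqp4 and Aldoc were named after their values were seen. The other genes named are the highest and lowest of each list whose mean log2 CPM reached 1, and the 10 most like the members. Some genes that this rule names are not reported here. Pairs of mice within a group were compared for libraries deposited more than once, and none agreed within sampling noise (chi-square per gene at least 7.58). Every library had at least 14917174 counts. With 1 library per mouse, the spread between mice cannot be told apart from the spread between libraries. Treatment was randomized within cages, per the study's methods, and the labels do not say which mice shared a cage or litter.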

Additional observations from a re-analysis of the deposited data

Results flagged for a closer look

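Single mice stood far from the rest of their group in 4 of the 30 groups of values examined (9 members and their mean in each of the groups of 6), where about 1 in 20 would be expected by chance. The measure is the gap to the nearest mouse as a share of the whole range of the group, on the log2 CPM scale. In the HsTX1[R14A] males mouse 93 was lowest for Mbp (gap 0.808 of the range, 1491 CPM), Mag (0.802, 45.7 CPM) and Cldn11 (0.838, 59.4 CPM). These 3 values come from 1 library. The treatment differences of Cnp, Cldn11 and Mag and several of the correlations are also given without it. The ranking of genes most like the members is given only with it. With any 1 mouse left out, the log2 fold change of Mbp ran from -0.44 to -0.35. In the PBS females mouse 84 was highest for Cnp (gap 0.638 of the range, 236 CPM). No test of a difference between the sexes in the treatment effect passed its threshold for a member.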

How the results depend on the processing

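Of the 9 members, 6 were called lower with all 21 mice. The count was 0 with the length slope as a covariate, 0 with mouse 93 left out as well, 0 within the 15 mice with SAMP8 names and 0 within the 6 with SAMP names, where fewer mice entered the fit; for the covariate the cause was not tested. It was 6 to 7 under the other alternatives and 6 to 6 with 1 mouse left out. The median log2 fold change over the members moved to -0.19 within the 6 mice and to -0.17 with the covariate and without mouse 93, and stayed between -0.53 and -0.33 otherwise (-0.47 without PBS mouse 91 to -0.39 without PBS mouse 90). Of the genes on the other lists, 44 were called, and 26 with length and GC trends removed. Over all genes, 5144 were called for treatment, 2501 with these trends removed, 1999 with the name form as a covariate, 2984 without the sex term, 0 with the slope as a covariate, 0 within the 15 mice and 0 within the 6 (1865, 5797 and 532 at an unadjusted p under 0.05, edgeR), and 1 with the covariate and without mouse 93. With 1 mouse left out it was 2289 (without PBS mouse 90) to 6614 (without HsTX1[R14A] mouse 93), and also under 5144 by more than 1.5 times without HsTX1[R14A] mice 98 (3005), 88 (3121), 81 (3263) and 71 (3332). For sex, 9 genes were called by edgeR, 26 by DESeq2, 18 with the trends removed, 6 in the 15 mice and in PBS mice alone, and 1 where every mouse had at least 10 counts. The sex difference of 3 uncalled members changed sign: Mag to 0.0518 with the slope covariate, 0.0569 with mouse 93 left out too and 0.0775 in the 6 mice, Cnp to -0.0259 in the 15 mice and Cldn11 to 0.0946 in the 6 mice. No paired analysis was possible because mouse numbers are unique and the labels do not give the cage of each mouse.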
